A study of Mus musculus with 2 samples.

Results

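The genes analysed here carry proteins into, through and back to the endoplasmic reticulum (ER), and sense the load of unfolded protein there. The members were named by symbol, as 51 genes in 5 steps: entry into the ER, folding in its lumen, export in COPII vesicles, COPI coats with the receptors that return escaped ER proteins, and the sensors and transcription factors of ER stress. Of these 51 genes, 50 were found by symbol among the 13620 genes of the deposited table. Mia3, which encodes the collagen export receptor TANGO1, was not analysed here. Their levels were compared between Fbxl10 T/T and wild-type mouse embryonic stem (ES) cells.

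RNA with poly(A) tails was sequenced in 1 library of Fbxl10 T/T cells (T/T), which carry the T allele on both chromosomes, and 1 library of wild-type (WT) cells, both ES cells on a C57BL/6J background. Both cultures were kept with serum and LIF, a cytokine that holds ES cells undifferentiated, on growth-arrested mouse embryonic fibroblasts, which were depleted by attachment before use. Fbxl10, now named Kdm2b, encodes a CpG island-binding subunit of a Polycomb complex, and the series addresses its role at genes bound by Polycomb. The labels do not say what the T allele alters or how many clones were used. Kdm2b RNA stood at 10.6 CPM in Fbxl10 T/T cells and 103 CPM in WT cells, 9.66-fold lower (counting interval 8.5- to 11.02-fold).

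Each genotype had 1 library and no replicate, so differences were not tested, and "higher" or "lower" compares 2 libraries. Levels are normalised CPM, that is, reads of a gene per 1000000 of the effective library size, and are not corrected for gene length. The table held 27109446 reads in the Fbxl10 T/T library and 21198574 in the WT library, and each of the 50 genes had at least 185 reads in both. Folds are ratios of CPM, with exact binomial (Clopper-Pearson) 95% intervals that cover counting error only. The log2 ratio adds 0.5 CPM to both values and is positive where the Fbxl10 T/T library was higher. A gene was counted as higher or lower when this ratio passed 2-fold.

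The labelled cell type was checked against its markers. All 8 ES cell markers were lower in Fbxl10 T/T cells, 6 of them at least 2-fold. Their ratios ran from 1.15-fold lower (Klf4) to 20.7-fold lower (Nr0b1). Their summed level was 1011 CPM in Fbxl10 T/T cells and 5565 CPM in WT cells. Klf4 alone stood at 514 CPM in T/T against 591 CPM in WT. Among 12 markers of extraembryonic endoderm, a tissue that secretes basement membrane, 11 were at least 2-fold higher and 1 was lower. The 11 were 5.87-fold (Sox7) to 14.4-fold (Sox17) higher, and Thbd was 2.36-fold lower. The 12 markers summed to 63327 CPM in Fbxl10 T/T cells and 6744 CPM in WT cells. Of 8 visceral endoderm markers 6 were listed, 3 higher and 2 lower, with a sum of 1440.4 CPM in Fbxl10 T/T cells and 287 CPM in WT cells. Fibroblast markers, which would mark feeder cells, summed to 364 CPM in Fbxl10 T/T cells and 444 CPM in WT cells over the 9 of 10 listed. None was at least 2-fold higher and 1 was lower, Twist1 (6.85-fold), against 14.8% and 20.6% of all listed genes at 1 CPM or more. Of the 9 markers 7 had a negative log2 ratio. Col1a1 and Col1a2, at 117 and 145 CPM in T/T against 102 and 168 CPM in WT, made up most of both sums. None of the listed markers was at 0, and Apoa1 had the fewest reads, 7 in Fbxl10 T/T cells against 26 in WT cells. The part of these cell type markers in the results that follow was not tested, and in bulk RNA a change in the share of a cell type cannot be told apart from a change in RNA per cell.

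Proteins bound for secretion, membranes or lysosomes enter the ER through the Sec61 channel, are folded there by chaperones and disulfide isomerases, and leave in vesicles coated by COPII. COPI vesicles carry material back, and KDEL receptors retrieve chaperones that end in a KDEL-like signal. When unfolded protein accumulates, the sensors IRE1, PERK and ATF6 start the unfolded protein response, in which XBP1 and ATF6 act on genes for folding and transport and ATF4 acts on genes for amino acid supply and redox balance. Cells with a large secretory output, such as those that build the basement membrane of the early embryo, are rich in this machinery.

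Most genes of the ER and its transport coats stood higher in the Fbxl10 T/T library. Of the 50 genes, 32 stood 2-fold or more above WT cells, against 14.8% of the 13512 listed genes at 1 CPM or more, and none was 2-fold lower, against 20.6% of all genes. The genes were chosen with earlier results of these data known, so the shares describe them and are no test. At 1.5-fold 41 were higher, against 26.5% of all genes, and at 4-fold 5 were (Creb3l2, Pdia5, Kdelr3, Sec24d and Dnajc3), against 3.84%. The median log2 ratio of the 50 genes was 1.30, beside 0.02 over all genes tested. Most had many reads, and among all genes with a mean of at least 20 CPM 17.9% were 2-fold higher and 8.71% lower, with a median of 0.19. Of the 50 genes 49 passed that level, 32 of them higher and none lower. With the libraries rescaled to a common upper quartile, 26 of the 50 were above 2-fold, while over all genes the split moved to 1443 higher and 3254 lower, against 1994 higher and 2781 lower as deposited. Together the 50 genes took 1.73% of the reads in Fbxl10 T/T cells and 0.879% in WT cells. The plot of levels by step shows the spread of the values.

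**Figure D1:**
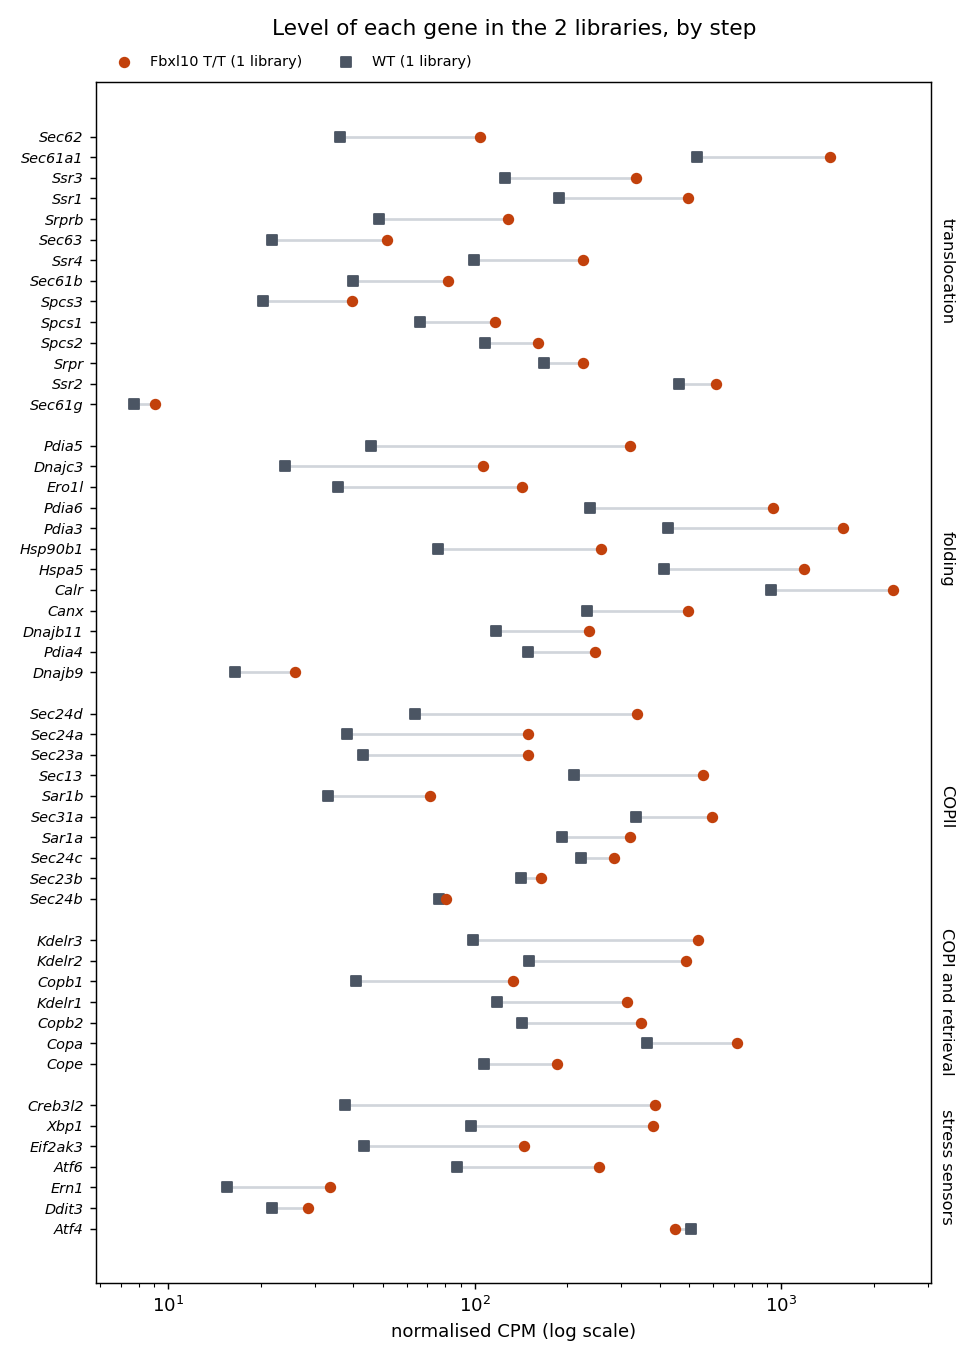
Level of each of the 50 genes in normalised CPM (horizontal log axis), grouped by step from translocation at the top to stress sensors at the bottom. Circles are the Fbxl10 T/T library and squares the WT library, 1 library each, and 49 of 50 circles lie to the right of their square, the exception being Atf4; Sec24b, Sec61g and Sec23b turn to the left under some rescalings.

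Entry into the ER had the narrowest range of ratios. Of 14 translocation genes 8 were at least 2-fold higher, none was lower, and the median log2 ratio was 1.10, with Sec61g lowest and Sec62 highest. Sec61a1, which encodes the pore of the translocation channel, was at 1437 CPM in Fbxl10 T/T cells and 529 CPM in WT cells, 2.72-fold higher (interval 2.66 to 2.77). Antisense exons overlap 17.3% of its exons. The small channel subunit gene Sec61b was at 81.9 CPM in Fbxl10 T/T cells and 40.0 CPM in WT cells. Its partner Sec61g was at 9.03 CPM in T/T against 7.75 CPM in WT, a ratio of 1.17 whose counting interval, 0.955 to 1.42, includes 1, and whose direction flipped with the libraries rescaled to the upper quartile or to listed reads. Both genes have processed pseudogenes, which share 50.7% of the longest Sec61b transcript and 13.9% of that of Sec61g at 95% identity or more, so their levels are uncertain.

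The helpers of the channel were higher by factors like that of its pore. Sec62 and Sec63 encode membrane proteins that assist transport through the channel, and Sec63 also recruits the chaperone BiP. Sec62 was at 103 CPM in Fbxl10 T/T cells and 36.3 CPM in WT cells, 2.85-fold higher, and an antisense gene overlaps 12.8% of its exons. Sec63 was at 51.5 CPM in T/T against 21.8 CPM in WT, 2.36-fold higher. The 4 subunits of the translocon-associated protein complex, which aids the entry of some signal peptides, were uneven. Ssr1 was at 495 CPM in T/T against 189 CPM in WT (2.63-fold), Ssr3 at 336 CPM in T/T against 125 CPM in WT (2.68-fold) and Ssr4 at 224 CPM in T/T against 99.3 CPM in WT (2.26-fold). Only Ssr2 stayed under 2-fold, at 613 CPM in Fbxl10 T/T cells against 463 CPM in WT cells, 1.32-fold.

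The receptor that docks ribosomes at the ER showed a similar unevenness. Its membrane anchor Srprb was at 128 CPM in Fbxl10 T/T cells and 48.7 CPM in WT cells (2.64-fold), while Srpr, the subunit that binds the signal recognition particle, was at 225 CPM in T/T against 168 CPM in WT (1.34-fold). An annotated gene on the same strand covers 29.0% of the exons of Srprb, and a processed pseudogene shares 42.9% of the longest Srpr transcript, so the difference between the subunits is uncertain. The genes of 3 accessory subunits of signal peptidase, the enzyme that cuts off the signal peptide, were 1.49- to 1.94-fold higher: Spcs3 was at 39.6 CPM in Fbxl10 T/T cells and 20.4 CPM in WT cells, Spcs1 at 116 CPM in T/T against 66.4 CPM in WT, and Spcs2 at 160.0 CPM in T/T against 108 CPM in WT. None of the 3 reached 2-fold. The listed antisense gene Glt8d1 overlaps 19.5% of the exons of Spcs1, and a processed pseudogene shares 23.4% of the longest Spcs2 transcript, so both levels are uncertain.

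All 12 folding genes were at least 1.5-fold higher in Fbxl10 T/T cells and 9 were at least 2-fold higher, with a median log2 ratio of 1.64. Pdia5, a protein disulfide isomerase gene (ENSMUSG00000022844, chromosome 16 from 35397399 to 35490959 in mm9), led the step at 321 CPM in Fbxl10 T/T cells against 45.8 CPM in WT cells, 7.004-fold higher (interval 6.57 to 7.47). Of all tested genes, 98.7% had a smaller log2 ratio. The related isomerase genes Pdia6 (936 CPM in T/T against 238 CPM in WT, 3.94-fold) and Pdia3 (1587 CPM in T/T against 426 CPM in WT, 3.73-fold) followed, while Pdia4 was at 247 CPM in T/T against 149 CPM in WT and 1.66-fold. Ero1l, the oxidase that recharges these isomerases, was at 142 CPM in Fbxl10 T/T cells and 35.8 CPM in WT cells, 3.97-fold.

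The general chaperones were 2.15- to 3.40-fold higher. Hspa5, which encodes BiP, the Hsp70 of the ER (ENSMUSG00000026864, chromosome 2 from 34627612 to 34632051 in mm9), was at 1188 CPM in Fbxl10 T/T cells and 414 CPM in WT cells, 2.87-fold (interval 2.80 to 2.93). Hsp90b1, the ER Hsp90 known as GRP94, had the largest ratio of these, at 258 CPM in T/T against 75.7 CPM in WT, 3.40-fold, and an antisense gene overlaps 14.7% of its exons. Calreticulin and calnexin, which hold newly made glycoproteins, were represented by Calr at 2313 CPM in T/T against 927 CPM in WT and Canx at 497 CPM in T/T against 232 CPM in WT, 2.50- and 2.15-fold. The J-domain cochaperones of BiP differed among themselves. Dnajc3 was 4.40-fold higher, at 106 CPM in Fbxl10 T/T cells and 24.1 CPM in WT cells. Dnajb11 lay at the threshold, at 235 CPM in T/T against 117 CPM in WT, and Dnajb9, a cochaperone gene known as a sensitive XBP1 target, was at 25.8 CPM in T/T against 16.5 CPM in WT, 1.56-fold.

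Of the 12 folding genes 6 carry the ER stress response element in the 300 bases around their start, taken from RefSeq (GRCm38.p6) as 250 bases before and 50 after the gene start. This element, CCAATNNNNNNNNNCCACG, is bound by ATF6 together with the factor NF-Y and was searched on both strands. It was found in 0.119% of the 32851 promoters of the table, or 0.137% of the 27025 genes they belong to. Promoters matched for 45 of the 50 genes, and it was found in 0 of 33 genes of the other 4 steps. The element is known from ER chaperone genes such as Hspa5, so finding it in folding genes is no new result of these data. The fixed letters of each match are in capitals below, in the whole 250 bases before the start for Hspa5, the textbook case, and for Hsp90b1, which holds a match on either strand, and in 39 bases for the other 4 genes. The windows lie in GRCm38.p6 at chr2:34771840-34772089 (plus strand), chr10:86705445-86705694 (minus), chr8:84847065-84847103 (minus), chr11:50325790-50325828 (minus), chr12:17266481-17266519 (plus) and chr14:118937817-118937855 (plus), in the order printed, and each is written 5′ to 3′ on the strand of its gene.
Hspa5: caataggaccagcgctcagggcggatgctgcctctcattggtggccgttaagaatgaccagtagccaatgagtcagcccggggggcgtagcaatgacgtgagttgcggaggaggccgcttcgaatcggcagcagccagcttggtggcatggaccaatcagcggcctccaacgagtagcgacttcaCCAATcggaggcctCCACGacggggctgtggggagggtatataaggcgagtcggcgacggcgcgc
Hsp90b1: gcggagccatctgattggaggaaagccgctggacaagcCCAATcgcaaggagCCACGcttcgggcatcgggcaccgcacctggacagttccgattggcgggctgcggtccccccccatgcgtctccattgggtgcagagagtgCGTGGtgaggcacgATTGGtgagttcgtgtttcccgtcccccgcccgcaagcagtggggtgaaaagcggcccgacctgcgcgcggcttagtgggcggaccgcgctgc
Calr: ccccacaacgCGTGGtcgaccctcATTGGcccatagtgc
Canx: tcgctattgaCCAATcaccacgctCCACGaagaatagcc
Pdia6: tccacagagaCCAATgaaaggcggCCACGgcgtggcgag
Dnajc3: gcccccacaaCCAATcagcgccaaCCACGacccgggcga

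The match begins 65 bases before the start in Hspa5, and 212 and 107 bases before it in Hsp90b1. These 6 genes were 2.15-fold (Canx) to 4.40-fold (Dnajc3) higher in Fbxl10 T/T cells. The folding genes without these letters in the window ranged more widely, with Pdia5 at the top of the step and Dnajb9 at its foot. A match describes the sequence and is not evidence of binding. Only exact matches were counted, so near copies and elements outside the window would have been missed.

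Export in COPII vesicles was divided between paralogues. Of 10 COPII genes 5 were at least 2-fold higher and none was lower, with a median log2 ratio of 0.96. Sec24d, which encodes a cargo-binding subunit of the inner coat (ENSMUSG00000039234, chromosome 3 from 122970414 to 123068553 in mm9), was at 338 CPM in Fbxl10 T/T cells and 63.9 CPM in WT cells, 5.29-fold higher (interval 5.01 to 5.59). Its paralogue Sec24a was at 149 CPM in T/T against 38.3 CPM in WT, 3.90-fold. The other two cargo adaptors were near their WT level: Sec24c was at 285 CPM in T/T against 222 CPM in WT, and Sec24b at 80.2 CPM in T/T against 76.2 CPM in WT, a ratio of 1.05 with an interval of 0.988 to 1.12 that turned below 1 in all 3 rescalings of the libraries.

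The partner of the cargo adaptors showed the same division. Sec23a, which activates the GTPase of the coat, was at 149 CPM in Fbxl10 T/T cells and 43.0 CPM in WT cells, 3.45-fold higher (interval 3.22 to 3.70). Sec23b was at 164 CPM in T/T against 141 CPM in WT, a ratio of 1.16 (interval 1.11 to 1.22) that turned below 1 after rescaling to the upper quartile or to listed reads. The GTPase itself is made from Sar1a, at 319.6 CPM in T/T against 192 CPM in WT (1.66-fold), and Sar1b, at 71.4 CPM in T/T against 33.0 CPM in WT (2.16-fold). Of the outer coat, Sec13 was at 556 CPM in Fbxl10 T/T cells and 210.4 CPM in WT cells (2.64-fold), and its partner Sec31a at 592 CPM in T/T against 336 CPM in WT (1.76-fold). Sec13 is also a subunit of the nuclear pore.

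Divided by exon length, the make-up of the inner coat RNAs differed between the libraries. Per kb of merged exons (GENCODE M21, GRCm38), the 4 Sec24 genes summed to 185 CPM per kb in Fbxl10 T/T cells and 85.4 CPM per kb in WT cells. Sec24d made up 45.6% of that level in Fbxl10 T/T cells and 18.7% in WT cells, and Sec24c 33.96% in Fbxl10 T/T cells and 57.2% in WT cells. The most abundant Sec24 RNA per kb was thus Sec24d in Fbxl10 T/T cells and Sec24c in WT cells. Sec23a made up 38.0% of the 2 Sec23 genes in Fbxl10 T/T cells and 17.1% in WT cells, with Sec23b the higher of the pair in both. The shares of the Sar1 genes moved less, with Sar1b at 32.7% in Fbxl10 T/T cells and 27.2% in WT cells.

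**Figure D2:**
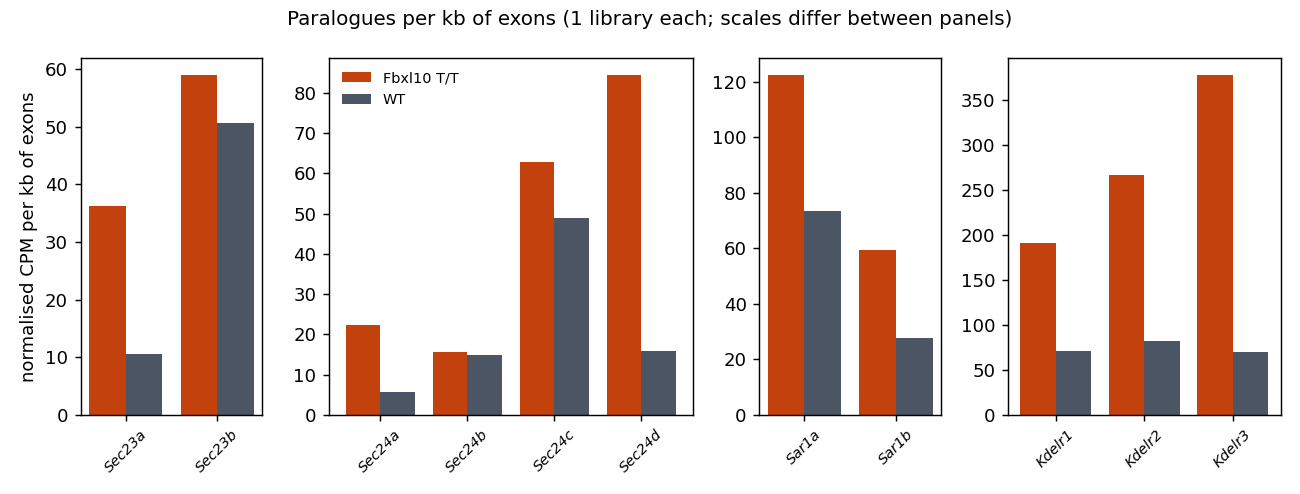
Level per kb of merged exons (normalised CPM per kb, vertical axes from 0, scales differ between panels) of the Sec23, Sec24, Sar1 and Kdelr paralogues in the Fbxl10 T/T library (left bars) and the WT library (right bars), 1 library each, without error bars. Sec24d is at 84.4 CPM per kb in Fbxl10 T/T cells and 16.0 in WT cells, and Sec24b at 15.6 in Fbxl10 T/T cells and 14.9 in WT cells, a difference whose direction flips when the libraries are rescaled; that of Sec23b flips in 2 of the 3 rescalings.

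All 7 genes of the COPI coat and of retrieval were at least 1.5-fold higher in Fbxl10 T/T cells and 5 were at least 2-fold higher, with a median log2 ratio of 1.41. Kdelr3 (ENSMUSG00000010830, chromosome 15 from 79346855 to 79358167 in mm9), one of 3 receptors for the KDEL signal of ER proteins, was at 533 CPM in Fbxl10 T/T cells and 98.4 CPM in WT cells, 5.41-fold higher (interval 5.18 to 5.66). Kdelr2 was at 487 CPM in T/T against 149.8 CPM in WT (3.25-fold) and Kdelr1 at 314 CPM in T/T against 118 CPM in WT (2.67-fold). The 3 receptors were at similar levels per kb in WT cells, from 69.7 to 81.9 CPM per kb, and at 377 (Kdelr3), 266 (Kdelr2) and 191 (Kdelr1) CPM per kb in Fbxl10 T/T cells. Kdelr3 made up 45.2% of their sum in Fbxl10 T/T cells and 31.3% in WT cells.

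The coat subunits ranged from 1.73- to 3.24-fold higher. Copb1, the beta subunit, was at 133 CPM in Fbxl10 T/T cells and 40.9 CPM in WT cells, 3.24-fold, and Copb2, the beta-prime subunit, at 347 CPM in T/T against 142 CPM in WT, 2.44-fold. Copa, the alpha subunit, lay just under the threshold at 717 CPM in T/T against 363 CPM in WT, 1.97-fold (interval 1.92 to 2.03). Cope, the epsilon subunit, was at 185 CPM in T/T against 107 CPM in WT, 1.73-fold.

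The second motif searched, again as exact letters, was the core of the unfolded protein response element of XBP1, TGACGTGG. It was found in 0.676% of all promoters, or 0.714% of their genes. Of the 45 genes with a promoter 5 held it, all of COPII (2 of 10) or of COPI and retrieval (3 of 6): Sec23a, Sec24d, Copb1, Copb2 and Kdelr3. Its reverse complement holds the CCACG that also ends the ER stress response element, and none of the 45 promoters held both motifs. The letters are in capitals below, in the 250 bases before the start for Sec24d and Kdelr3, the COPII and COPI genes with the highest ratios, and in 30 bases for the others. A match on the opposite strand reads as its reverse complement. The windows lie in GRCm38.p6 at chr3:123267246-123267495 (plus strand), chr15:79516158-79516407 (plus), chr12:59011993-59012022 (minus), chr7:114254690-114254719 (minus) and chr9:98563713-98563742 (plus), in the order printed, and are written 5′ to 3′ on the strand of the gene.
Sec24d: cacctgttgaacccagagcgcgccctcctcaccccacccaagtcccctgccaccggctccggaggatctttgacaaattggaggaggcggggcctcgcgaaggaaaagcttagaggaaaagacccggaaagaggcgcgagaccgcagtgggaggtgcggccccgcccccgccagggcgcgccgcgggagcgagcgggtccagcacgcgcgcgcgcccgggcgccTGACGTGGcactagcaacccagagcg
Kdelr3: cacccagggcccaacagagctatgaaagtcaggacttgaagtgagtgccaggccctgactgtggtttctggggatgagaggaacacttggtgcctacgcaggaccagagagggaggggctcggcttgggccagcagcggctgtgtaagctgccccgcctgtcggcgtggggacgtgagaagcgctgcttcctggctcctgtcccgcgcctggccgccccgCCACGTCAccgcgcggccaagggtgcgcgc
Sec23a: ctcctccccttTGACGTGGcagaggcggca
Copb1: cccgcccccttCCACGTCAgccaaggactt
Copb2: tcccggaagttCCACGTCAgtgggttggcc

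The motif begins 26 bases before the start in Sec24d, 28 in Copb1 and 30 in Kdelr3, while it lies across the start in Copb2 and just downstream of it in Sec23a. These 5 genes were 2.44-fold (Copb2) to 5.41-fold (Kdelr3) higher in Fbxl10 T/T cells. Of the 34 genes with a promoter and neither motif, 18 were at least 2-fold higher, with a median log2 ratio of 1.06, while the 11 with either motif had a median of 1.76. Each motif occurred only in certain steps, so motif and step cannot be told apart in these medians. The genes with the ER stress response element, all folding genes, had a median of 1.64, the same as the whole folding step. The Sec24 and Sec23 genes near their WT level, Sec24b, Sec24c and Sec23b, held neither motif, and nor did Sec24a. The composite element of ATF4, TGATGNAAN, was found in 3.95% of all promoters (4.50% of their genes) and in 1 of the 45, Kdelr1.

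**Figure D3:**
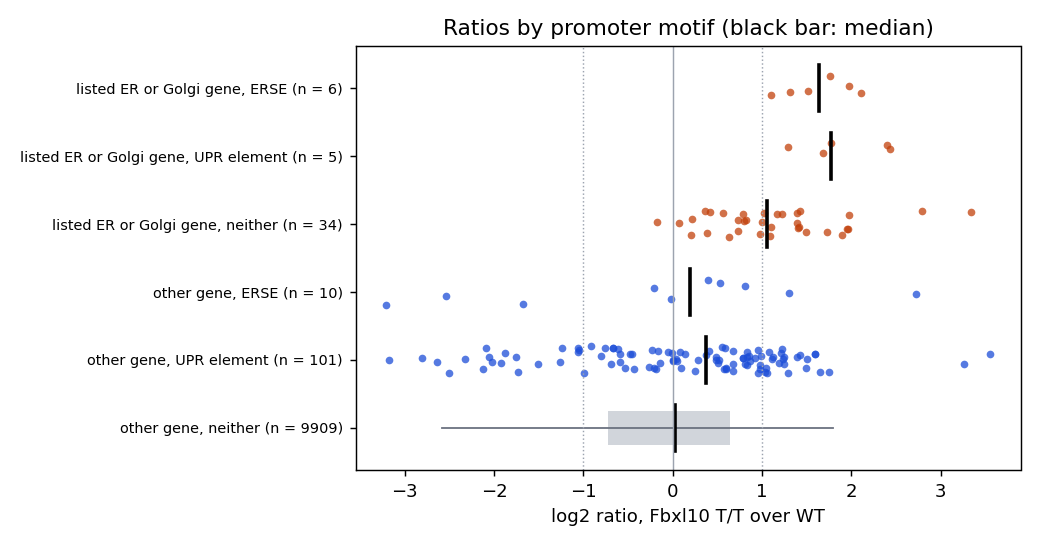
Log2 ratio of Fbxl10 T/T over WT (horizontal axis) by promoter motif (ERSE, the ER stress response element; UPR element, the unfolded protein response element). Dots are genes, black bars medians, and in the bottom row the box spans the range between the quartiles and the line the 5th to 95th percentile; the 11 listed ER or Golgi genes with a motif lie between 1.10 and 2.43, and their medians are 1.64 (ER stress response element) and 1.78 (unfolded protein response element).

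The sensors and factors of ER stress were split. Of 7 genes 5 were at least 2-fold higher and none was lower, with a median log2 ratio of 1.53. Creb3l2 (ENSMUSG00000038648, chromosome 6 from 37281021 to 37392139 in mm9) encodes an ER-membrane transcription factor that in mouse cartilage is known to act on Sec23a. It was at 387 CPM in Fbxl10 T/T cells and 37.7 CPM in WT cells, 10.3-fold higher (interval 9.58 to 10.998). This was the largest ratio of the 50 genes, and 99.5% of all tested genes had a smaller one.

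Each of the 3 sensors of the unfolded protein response was at least 2-fold higher as deposited, and Ern1 fell short of 2-fold in all 3 rescalings of the libraries, with log2 ratios of 0.79 to 0.96. Eif2ak3, the kinase PERK, was at 145 CPM in Fbxl10 T/T cells and 43.4 CPM in WT cells, 3.33-fold, with antisense exons over a part of its exons. Atf6, a membrane factor that is cleaved in the Golgi, was at 253 CPM in T/T against 87.7 CPM in WT, 2.89-fold, and Ern1, the kinase and nuclease IRE1, at 33.7 CPM in T/T against 15.5 CPM in WT, 2.17-fold. Xbp1, whose RNA is spliced by IRE1 to encode the active factor, was at 380.0 CPM in Fbxl10 T/T cells and 97.2 CPM in WT cells, 3.91-fold (interval 3.74 to 4.09). Gene-level counts do not separate spliced from unspliced Xbp1 RNA.

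For Atf4 and Ddit3, which act downstream of PERK, the ratios were closer to 1. Atf4 was at 448 CPM in Fbxl10 T/T cells and 507 CPM in WT cells, a ratio of 0.883 (interval 0.861 to 0.906), and it was the only one of the 50 genes with a negative log2 ratio. ATF4 protein is controlled mainly by translation, which RNA levels do not show. Ddit3, which encodes the stress factor CHOP and is a target of ATF4, was at 28.5 CPM in T/T against 21.7 CPM in WT, 1.31-fold (interval 1.17 to 1.47). A second annotated Ddit3 entry on the same strand shares 11.8% of its exons.

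**Figure D4:**
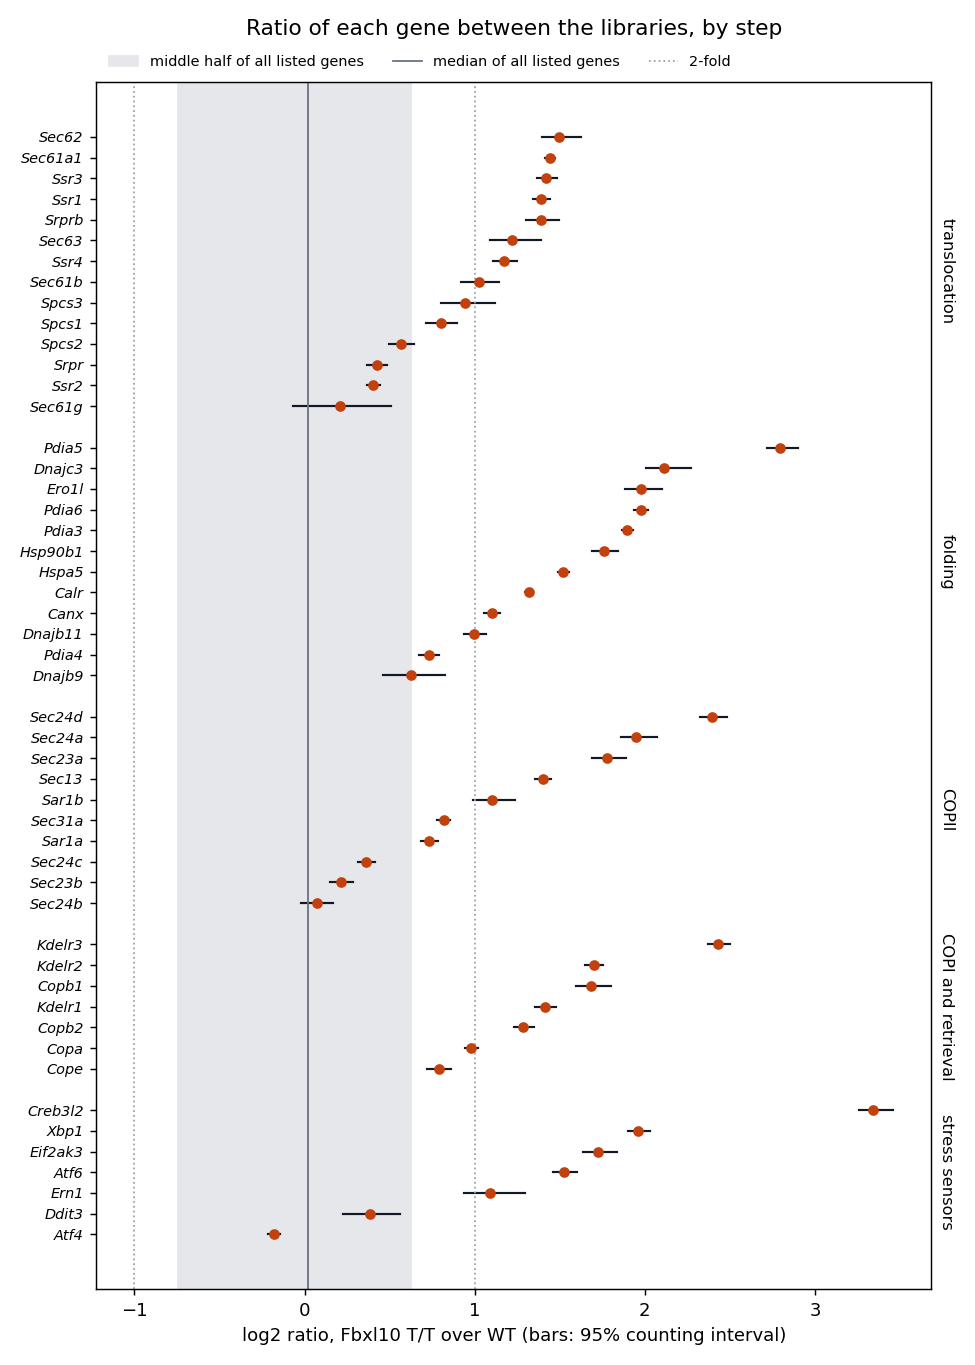
Log2 ratio of Fbxl10 T/T over WT (horizontal axis) for each of the 50 genes by step. Bars are 95% counting intervals, the grey band is the range between the quartiles of all listed genes and the dotted lines are 2-fold; Creb3l2 is highest at 3.34 and Atf4 lowest at -0.18, and Sec24b (0.07), Sec61g (0.21) and Sec23b (0.22) change sign under some rescalings.

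Other genes of the same pathway were described in 7 lists that hold none of the 51 genes and were also chosen with earlier results known. In the 5 lists of the ER and its coats the median log2 ratio was positive, from 0.74 to 1.10, although most genes of 4 of the 5 lists lay within 2-fold, and for the targets of ATF4 it was negative. Of 36 further genes of translocation and N-glycan transfer 15 were at least 2-fold higher and 1 lower, with a median log2 ratio of 0.88. Magt1, a subunit of the glycan-transferring enzyme, was at 46.2 CPM in Fbxl10 T/T cells and 13.7 CPM in WT cells (3.37-fold). Tram2, a translocon-associated gene known for collagen synthesis, was at 53.2 CPM in T/T against 16.0 CPM in WT, and Emc9, of the membrane insertase complex EMC, at 8.95 CPM in T/T against 2.34 CPM in WT. Wrb, a receptor gene for tail-anchored proteins, was the lower gene, at 20.6 CPM in Fbxl10 T/T cells and 44.97 CPM in WT cells, followed by Emc8 (98.7 CPM in T/T against 165 CPM in WT) and Sec61a2 (22.4 CPM in T/T against 31.2 CPM in WT).

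Of 35 further folding genes 19 were at least 2-fold higher and 1 lower, with a median log2 ratio of 1.10. The prolyl isomerase genes Fkbp9 and Fkbp11 had the largest ratios, at 1552 CPM in T/T against 244 CPM in WT (6.35-fold) and 72.9 CPM in T/T against 12.4 CPM in WT (5.86-fold), followed by the thioredoxin-like gene Txndc12 (347 CPM in T/T against 78.4 CPM in WT). Fkbp10, whose product folds fibrillar collagen, was 3.31-fold lower, at 19.0 CPM in Fbxl10 T/T cells and 63.0 CPM in WT cells. Creld1 (14.2 CPM in T/T against 26.9 CPM in WT) and Tmx2 (29.6 CPM in T/T against 30.2 CPM in WT) were the next lowest. Of 28 genes of ER-associated degradation, which returns misfolded proteins to the cytosol, 12 were at least 2-fold higher and none lower, with a median of 0.89. Edem2, a lectin-like protein of that route, was at 109 CPM in T/T against 29.4 CPM in WT, Herpud1, a ubiquitin-like membrane protein, at 90.6 CPM in T/T against 25.5 CPM in WT and Vimp at 156 CPM in T/T against 46.6 CPM in WT. Rnf5, Faf2 and Ufd1l were lowest, between 1.08- and 1.21-fold below WT cells.

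The accessory genes of the coats had smaller medians. Of 34 measured genes for COPII accessory proteins and cargo receptors 11 were at least 2-fold higher and none lower, with a median log2 ratio of 0.76. The cargo receptor Surf4 was at 1004 CPM in Fbxl10 T/T cells and 292 CPM in WT cells (3.44-fold), Tmed3, of the p24 family of cargo receptors, at 101 CPM in T/T against 27.6 CPM in WT, and Lman1, a lectin that carries glycoproteins, at 125 CPM in T/T against 47.7 CPM in WT. Sec16a, the scaffold of ER exit sites, was at 154 CPM in T/T against 168 CPM in WT, beside Ergic1 (135 CPM in T/T against 187 CPM in WT) and Cnih4 (64.4 CPM in T/T against 70.1 CPM in WT). Of 19 further COPI and retrograde genes 7 were higher and none lower, with a median of 0.74. Arfgap3, which triggers GTP hydrolysis on the COPI coat, was 6.39-fold higher, at 124 CPM in T/T against 19.4 CPM in WT, and its relative Arfgap1 3.21-fold higher. The coat paralogue Copz2 was at 22.4 CPM in Fbxl10 T/T cells and 4.48 CPM in WT cells. Use1, Zw10 and Copg2 had the smallest ratios, from 66.6 CPM in T/T against 95.6 CPM in WT for Use1 to 42.5 CPM in T/T against 38.1 CPM in WT for Copg2.

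The 32 targets of the ATF4 pathway had a median log2 ratio of -0.35, with 5 past 2-fold above WT cells, 4 past 2-fold below and the other 23 within 2-fold. Of all genes 14.8% were above and 20.6% below by that much, so the share of higher targets was close to that of all genes. The higher genes were led by Stc2 (169 CPM in Fbxl10 T/T cells and 28.7 CPM in WT cells, 5.89-fold), the stress factor Atf3 (319.5 CPM in T/T against 55.6 CPM in WT, 5.75-fold) and the lipoprotein receptor gene Vldlr (30.3 CPM in T/T against 5.78 CPM in WT). The lowest were Aldh1l2, a mitochondrial folate enzyme, at 4.86 CPM in T/T against 18.1 CPM in WT, Cebpb at 11.1 CPM in T/T against 29.6 CPM in WT and the cystine transporter gene Slc7a11 at 3.20 CPM in T/T against 7.41 CPM in WT. Of the 32 targets 21 had a negative log2 ratio, as had 1 of the 50 genes of the 5 steps and 6630 of all 13512 genes. Other transducers of ER stress had no common direction. Of 14 measured 2 were at least 2-fold higher, a share close to the 14.8% of all genes, and 1 was lower. The 2 genes are relatives of Creb3l2: Creb3l1 at 188 CPM in T/T against 54.1 CPM in WT (3.49-fold) and Creb3 at 132 CPM in T/T against 51.001 CPM in WT (2.58-fold). Further relatives had few reads, with Creb3l3 at 0.405 CPM in T/T against 1.09 CPM in WT and Creb3l4 at 0.729 CPM in T/T against 1.26 CPM in WT, both named after their values were seen. Crebzf was 2.62-fold lower, Atf6b, the paralogue of Atf6, was at 47.6 CPM in Fbxl10 T/T cells and 83.7 CPM in WT cells, and the heme-regulated kinase gene Eif2ak1 was at 55.7 CPM in T/T against 77.6 CPM in WT. Ppp1r15b, a subunit of the phosphatase that reverses PERK signalling, was at 329.9 CPM in T/T against 218 CPM in WT.

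**Figure D5:**
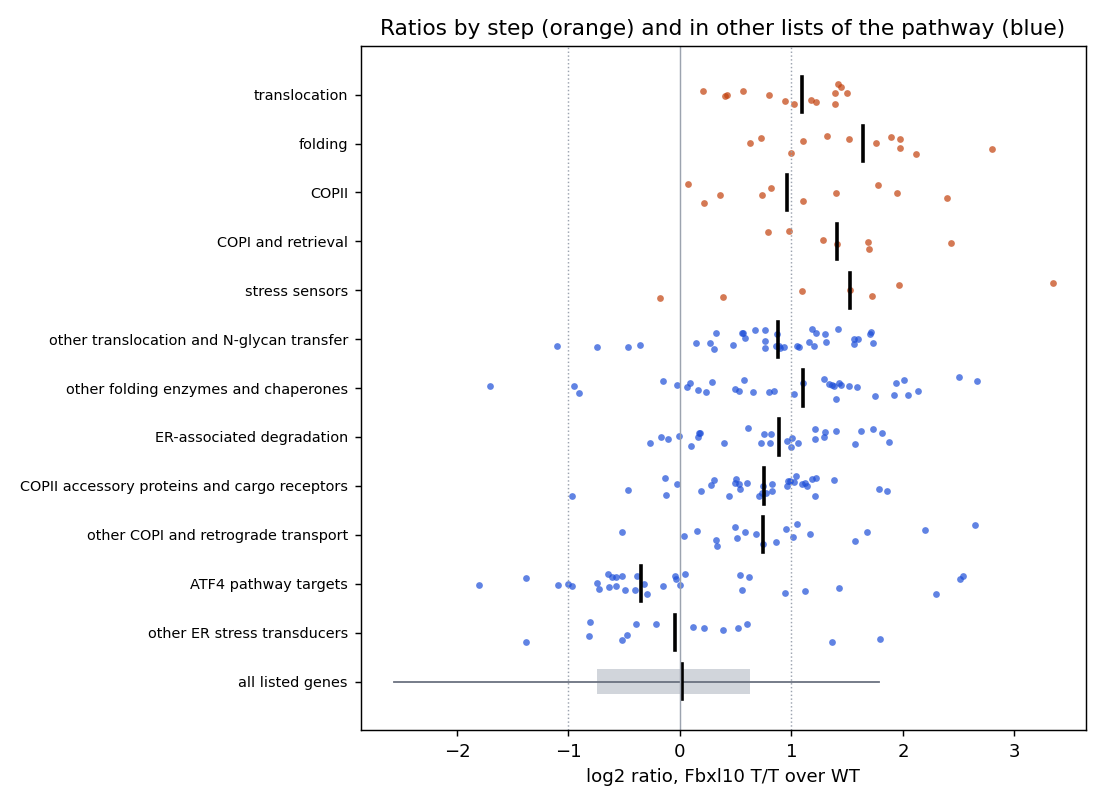
Log2 ratio of Fbxl10 T/T over WT (horizontal axis) for genes at 1 CPM or more, in the 5 steps (orange) and in the 7 other lists of the pathway (blue). Dots are genes and black bars medians, which run from 0.96 to 1.64 in the steps and from -0.35 to 1.10 in the other lists; in the bottom row the box spans the range between the quartiles of all listed genes and the line their 5th to 95th percentile.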

How the data were processed

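The deposited table held a signal per gene for each library, and per the file headers it is CPM with the authors' log2 ratio of WT over T/T. The submitters' processing notes name mm9, TopHat 1.4.1, HTSeq 0.5.3p9 and edgeR, without their roles, and neither annotation nor strand setting is given in the sources used here. Whole reads could be recovered, since all values (100%) lay within 0.01 reads of a multiple of 0.0405 CPM in Fbxl10 T/T and 0.0419 CPM in WT. Of 24706 deposited rows, 11086 repeats were used once. Where both libraries reached 5 CPM (9311 genes), log2 ratios of the deposited signal lay within 0.0028 of those the authors give, with the sign turned.

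Genes and lists were chosen with earlier results of these data known. Named genes are all members and the 3 highest and 3 lowest ratios of each other list among genes at 5 CPM or more. Lists are described by counts and medians. Reads are not independent molecules, so intervals cover counting error only, and 3 reads (0.122 and 0.126 CPM in Fbxl10 T/T and WT) set the limit of detection. An exact binomial test of the recovered reads, with Benjamini-Hochberg adjustment at 0.05, called 5792 of 13620 genes higher and 5580 lower. It compares the libraries, not the genotypes. Shared pseudogene sequence was measured with blastn (alignments of 100 bases or more at 95% identity) and overlaps on GENCODE M21. Protein sequences were planned and not used here. The code for ratios, intervals and read recovery was tested on simulated reads. Tools were scipy 1.17.1, pandas 2.3.3, numpy 2.4.6 and matplotlib 3.10.9 in Python 3.11.15.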

Additional observations from a re-analysis of the deposited data

How the results depend on the processing

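The 32 genes at least 2-fold higher were 32 with pseudocounts of 0.1 or 1 CPM, with no minimum, with a minimum of 5 CPM and, added after the data were seen, among genes with a mean of 20 CPM, and 28, 26 and 25 with the libraries rescaled to the median, the upper quartile or listed reads. Sec61b, Canx, Sar1b and Ern1 fell short of 2-fold in all 3 rescalings, Sec63 and Ssr4 in the last 2 and Copb2 in the last. Those rescalings moved the median of all genes by -0.13, -0.23 and -0.29. At 4-fold 5 genes were higher. The exact binomial test of reads called 47 genes higher and 1 lower, Atf4, with 2 not called. Over all 13620 listed genes it called 5792 higher and 5580 lower, so it called most genes of the data. Of 84 list medians under an alternative 82 moved no further than the longer arm of an interval from the order statistics of the genes. The genes of a list are not replicates, and in short lists that interval spans their whole range, so this count decides little. The median of other stress transducers turned positive, 0.17, over the fewer genes at 5 CPM or more, and that of COPII accessory genes moved to 0.45 with listed reads. Of 350 single log2 ratios under an alternative 208 moved no further than the longer arm of their counting interval. Another 135 moved beyond it, so for these the interval understates the spread between settings, and 7 changed sign. Sec24b turned to -0.0567, -0.16 and -0.23 under the 3 rescalings. With the upper quartile and listed reads Sec61g turned to -0.0155 and -0.08, and Sec23b to -0.0219 and -0.0905. A rescaling shifts every ratio by construction. No paired analysis was possible because each genotype has 1 library.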

Other observations

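Outside the 5 steps, promoters with either motif belonged to higher and lower genes. Of 10010 other listed genes without the ER stress response element, 15.2% were at least 2-fold higher and 20.3% lower (median log2 ratio 0.03). Of the 10 with it, 2 were higher and 3 lower (median 0.19). Among them Syvn1, a ubiquitin ligase of ER-associated degradation, was at 199 CPM in Fbxl10 T/T cells and 80.1 CPM in WT cells, Creld2 at 113 CPM in Fbxl10 T/T cells and 78.1 CPM in WT cells, and Derl3 at 4.01 CPM in Fbxl10 T/T cells and 2.93 CPM in WT cells. Zfp57, which guards imprinted methylation, also holds the letters and was at 94.4 CPM in Fbxl10 T/T cells and 303 CPM in WT cells. Of 101 other listed genes with the unfolded protein response element, 22.8% were at least 2-fold higher and 18.8% lower (median 0.37), while of 9919 without it 15.1% were higher and 20.3% lower (median 0.03). Vcp, Arf1, Stx5a, Ube2j1, Gbf1, Txndc5 and Txndc11, all in the pathway lists, hold it, with log2 ratios from 0.51 (Gbf1) to 1.75 (Txndc11), and so does Nfe2l1, at 368 CPM in Fbxl10 T/T cells and 426 CPM in WT cells. These genes were picked after their values were seen.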
